A study of Homo sapiens with 8 samples.

Results

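The experiment of an array, first or second, was compared here across all 8 arrays of the series, 4 from each of 2 experiments. The arrays were split by the experiment that their labels name, which matches the replicate number in their titles, and paired by treatment. This used no measured value. All arrays carried total RNA of HEL cells, an established human erythroleukaemia line whose growth depends on an activated JAK2 kinase. In each experiment 1 culture received DMSO alone (the control), 1 received 0.5 µM LY2784544, an inhibitor of JAK2, 1 received 20 µM GRN163L, an oligonucleotide inhibitor of telomerase, and 1 received LY2784544 and GRN163L together, all for 48 h. The labels state no separate doses for the combination. They say that the experiments were made separately and name no date, passage or culture lot for either, so whatever separated them (cells, medium, handling, RNA or array run) cannot be told apart. A pair below is the 2 arrays of one treatment, and each treatment has 1 culture per experiment.

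Of 17958 genes with a probe set of their own, 12570 passed the filter on dim signals and were tested. Values are log2 RMA signals, so a difference of 1 is a 2-fold difference between arrays, and every difference below is experiment 2 minus experiment 1. A gene was called where limma's moderated test gave a Benjamini-Hochberg adjusted p below 0.05 over all genes tested. The markers of a HEL-like blood cell were bright on every array: GATA1, a transcription factor of red cells and megakaryocytes, lay between 10.23 and 10.70, and ITGA2B, the platelet integrin alpha chain, between 11.13 and 11.46. Of the markers of other cells, 6 of 11 for T and NK cells, 4 of 7 for B cells, 8 of 11 for monocytes and neutrophils, 4 of 9 for epithelium and 4 of 10 for fibroblasts reached the filter level of 4.37. The levels summed over the T and NK cell list were 51.33 to 52.78 on the arrays of experiment 1 and 49.71 to 52.21 on those of experiment 2, and over the epithelial list 44.5 to 45.61 and 42.83 to 44.73. KRT8, a keratin of simple epithelia, was lower in experiment 2 in every pair (6.76 and 6.34 in control, 6.66 and 6.05 with GRN163L, 7.42 and 6.65 with LY2784544, 7.15 and 6.45 with the combination; -0.625, SE 0.104, adjusted p = 0.0671), and none of these markers was called. Their part in the results was not tested. In bulk RNA of this kind, fewer cells in a state and less RNA per cell cannot be told apart.

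Several gene programs met in this comparison. Immediate early genes such as FOS, FOSB and the EGR genes encode transcription factors that cells make within minutes of a growth signal, serum or stress, through kinases that act on factors already bound at their promoters, and their transcripts are short-lived. Genes of DNA replication are switched on by E2F factors as a cell enters S phase, whereas genes of G2 and mitosis (spindle, kinetochore and cyclin B genes) are made later, shortly before division.

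Because immediate early genes were among the genes called higher in experiment 2, the 250 bases upstream of the RefSeq start of FOS (chr14:75278578-75278827, plus strand, GRCh38.p14), FOSB (chr19:45467746-45467995, plus strand) and EGR1 (chr5:138465229-138465478, plus strand) are shown, with matches in capitals. The motifs searched on both strands were TGACG, the core of the site bound by CREB and ATF factors (CGTCA on the other strand), TATAAA, and the CArG box, the core of the serum response element. No matches overlapped in these 3 sequences.
FOS: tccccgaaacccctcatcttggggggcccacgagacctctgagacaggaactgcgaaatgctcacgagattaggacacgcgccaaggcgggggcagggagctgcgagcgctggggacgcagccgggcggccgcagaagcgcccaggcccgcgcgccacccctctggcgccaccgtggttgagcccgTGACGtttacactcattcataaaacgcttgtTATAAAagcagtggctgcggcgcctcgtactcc
FOSB: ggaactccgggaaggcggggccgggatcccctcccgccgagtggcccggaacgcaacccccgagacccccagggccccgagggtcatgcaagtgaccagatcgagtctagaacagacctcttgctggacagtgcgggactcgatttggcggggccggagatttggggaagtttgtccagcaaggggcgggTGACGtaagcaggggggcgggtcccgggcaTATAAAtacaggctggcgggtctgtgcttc
EGR1: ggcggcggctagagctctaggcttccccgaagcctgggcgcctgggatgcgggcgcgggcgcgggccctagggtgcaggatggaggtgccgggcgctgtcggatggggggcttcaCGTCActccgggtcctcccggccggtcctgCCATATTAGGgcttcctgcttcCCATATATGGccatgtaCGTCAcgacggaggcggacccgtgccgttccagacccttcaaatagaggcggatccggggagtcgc
EGR1 held 2 matches to the CArG box and 2 to TGACG, and FOS and FOSB each held 1 match to TGACG and 1 to TATAAA. Among 35116 RefSeq promoters, 1.16% held a CArG box in this window, 21.2% held TGACG and 10.7% held TATAAA. Of the 23 genes called higher in experiment 2, the table of promoters held 17. Of those 17, 10 held TGACG, 6 held TATAAA and 1, EGR1, held a CArG box. The shares over all promoters were not limited to the genes tested here, whereas the 17 were counted at 1 promoter per gene. The counts were not tested against these shares. A match describes letters only and does not show that a factor was bound. Bases further upstream than 250 were not searched, so a missing match does not show that a gene, FOS included, lacks the motif.

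Averaged over the 4 treatments, 23 genes were called higher in experiment 2 (0.183% of the genes tested) and 8 lower (0.0636%), together 31 (0.247%). FOS, FOSB, EGR1 and EGR3, which encode immediate early transcription factors, were among the genes called higher, with TNF and CXCL2, an inflammatory cytokine and a chemokine, PTGS2, the inducible cyclooxygenase, and CD69, an early activation antigen of blood cells. All 31 genes kept their sign in all 4 pairs, and the smallest absolute difference of any of them in any pair was 0.48. Among all genes, 15.7% were higher in experiment 2 in all 4 pairs and 10.8% were lower in all 4. For 23 of the 31 the 4 arrays of one experiment all lay above the 4 of the other, which held for 6.39% of all genes tested. An unadjusted p below 0.05 was reached by 2497 genes (19.9%), where 5% of the genes tested is 628. With arrays set to one median, which shifts this comparison by 0.059, 20 genes were called higher and 16 lower. Leaving out a pair ended nearly all of these calls: without the control, the LY2784544 or the GRN163L pair no gene was called, at 3386, 1421 and 2299 genes with an unadjusted p below 0.05, and without the combination pair 2 genes were.

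FOS, a subunit of the AP-1 transcription factor, differed most. Its signal in experiments 1 and 2 was 7.72 and 9.09 in control, 6.32 and 8.38 with GRN163L, 5.95 and 9.16 with LY2784544, and 5.45 and 8.43 with the combination. The 4 arrays of experiment 2 lay close together and all above those of experiment 1, where control was the highest. The mean difference was 2.405 (SD 0.85, n = 4 pairs; SE 0.273, limma adjusted p = 0.0444), a 5.30-fold difference. FOSB, a second AP-1 subunit, went from 5.47 to 7.16 in control, from 5.48 to 6.86 with GRN163L, from 5.61 to 7.81 with LY2784544 and from 5.34 to 7.51 with the combination. Its 4 arrays of experiment 1 were nearly level, and its mean difference of 1.86 (SD 0.396, n = 4 pairs; SE 0.152) had the smallest adjusted p of all genes (0.0185).

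EGR3, a zinc finger factor of the same early response, was at 5.12 and 7.45 in control, 4.26 and 5.61 with GRN163L, 4.24 and 6.11 with LY2784544, and 3.99 and 5.23 with the combination (mean difference 1.698, SE 0.178, adjusted p = 0.0444). Here control was the highest array in each experiment and the combination the lowest. On 3 of the 4 arrays of experiment 1 the signal of EGR3 was below the filter level of 4.37, so the size of its difference is uncertain, and a filter at the 50th percentile leaves the gene out. EGR1, the founding member of that family, was already bright: it was at 11.53 and 12.25 in control, 10.69 and 11.41 with GRN163L, 10.87 and 12.01 with LY2784544, and 10.21 and 11.48 with the combination (0.9625, SE 0.127, adjusted p = 0.0444). The experiments overlapped for EGR1, since control in experiment 1 lay above GRN163L and the combination in experiment 2, although every pair differed in the same direction.

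**Figure D1:**
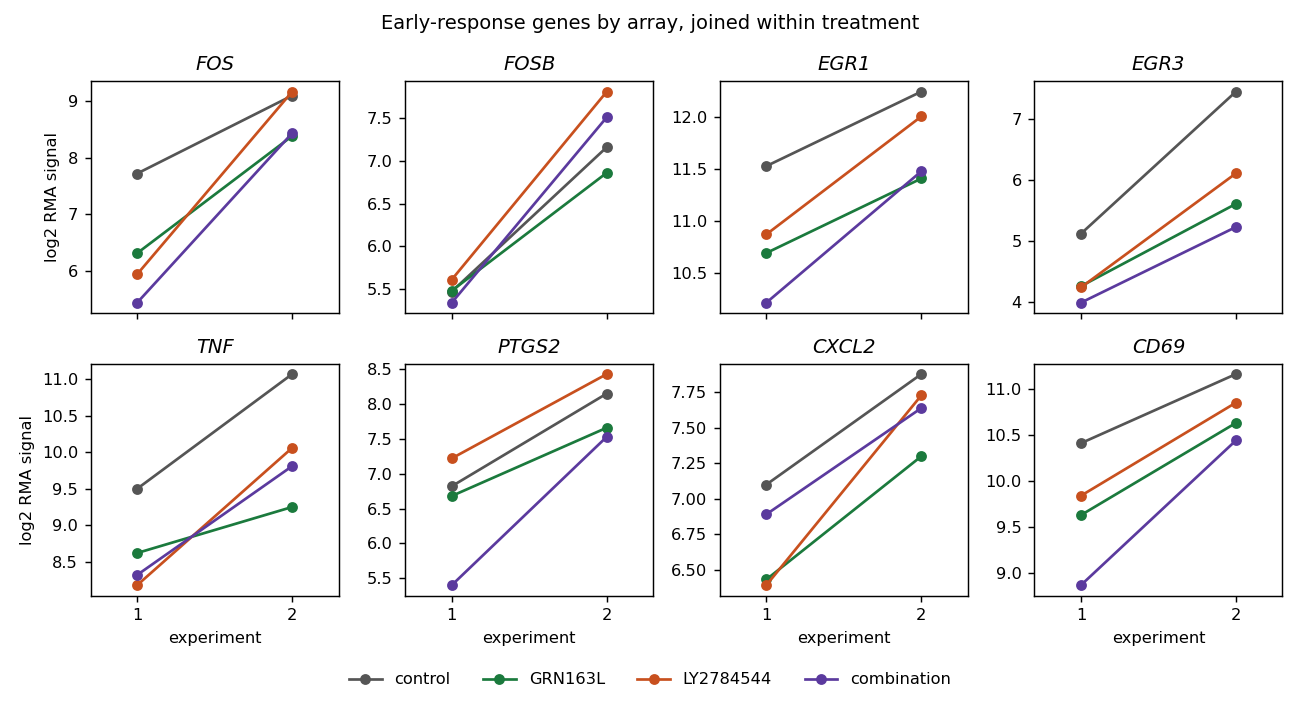
Log2 RMA signal of 8 genes called higher in experiment 2, with 1 point per array and a line joining the 2 experiments of a treatment; each panel has its own vertical scale. Every line goes up, and FOSB is nearly level across treatments in experiment 1 (5.34 to 5.61), whereas TNF and EGR1 overlap between experiments.

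TNF was at 9.50 and 11.07 in control, 8.62 and 9.25 with GRN163L, 8.18 and 10.06 with LY2784544, and 8.32 and 9.81 with the combination. The experiments overlapped, because control in experiment 1 exceeded GRN163L in experiment 2, and the GRN163L pair differed least. The mean difference was 1.393 (SE 0.187, adjusted p = 0.0444); the 3 probe sets of TNF held the same values on every array and are 1 measurement. PTGS2, which makes prostaglandins, was at 6.82 and 8.15 in control, 6.68 and 7.66 with GRN163L, 7.22 and 8.43 with LY2784544, and 5.4 and 7.53 with the combination (1.413, SE 0.178, adjusted p = 0.0444). CD69 went from 10.41 to 11.16 in control and from 8.87 to 10.44 with the combination, with a mean difference of 1.083 (SE 0.14, adjusted p = 0.0444). CXCL2, a chemokine that draws neutrophils, differed by 0.935 (SE 0.125, adjusted p = 0.0444), with the 4 arrays of experiment 1 between 6.39 and 7.10 and those of experiment 2 between 7.30 and 7.88. THBS1, the matrix protein thrombospondin, was at 9.43 and 10.11 in control and at 10.00 and 11.23 with the combination (0.9525, SE 0.115, adjusted p = 0.0444).

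These genes were not accompanied by the whole of their families. Of the 21 tested genes of the list of MAPK feedback and immediate early genes, 18 were higher in experiment 2 and 4 were called (FOS, FOSB, EGR1 and EGR3). The median difference was 0.395 against 0.013 over all genes tested. Of all genes tested, 52.6% were higher in experiment 2, the share to set beside this count and those of the lists below. The list's median was 0.62 in the control pair, 0.36 with LY2784544, 0.35 with GRN163L and 0.29 with the combination. Of the 18 genes of the NF-kB and inflammatory list, 8 were higher and 10 lower, with a median of -0.066, and TNF and CXCL2 were the members called. TNFAIP3 and NFKB2, feedback genes of NF-kB, were lower in every pair without being called: TNFAIP3 was at 9.10 and 8.38 in control, 9.40 and 8.55 with GRN163L, 7.81 and 7.47 with LY2784544, and 8.47 and 8.14 with the combination (-0.56, SE 0.123, adjusted p = 0.0919), and NFKB2 had a difference of -0.415 (SE 0.105, adjusted p = 0.103). NFKBIZ, an NF-kB gene named after its values were seen, was higher in every pair without being called (0.6575, limma adjusted p = 0.0519). It differed by 0.54 in control, 0.60 with GRN163L, 0.70 with LY2784544 and 0.79 with the combination. The 19 JAK-STAT target genes had a median of -0.025, with none called.

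Further genes called higher act in DNA replication or vary with the cell cycle, and they are placed together here after their calls were known. CLSPN, the adaptor of the replication checkpoint kinase, was at 7.42 and 8.43 in control, 6.87 and 8.10 with GRN163L, 7.99 and 8.47 with LY2784544, and 7.2 and 8.52 with the combination (1.01, SE 0.147, adjusted p = 0.0488), and its other probe set differed by 0.79. GINS3, a subunit of the replicative helicase, was at 6.71 and 7.68 in control and at 6.25 and 7.23 with the combination (0.8425, SE 0.107, adjusted p = 0.0444), and all its arrays of experiment 2 (7.23 to 7.68) lay above those of experiment 1 (6.25 to 6.71). FAM111B, a protease whose transcript varies with the cell cycle, differed by 1.137 (SE 0.129, adjusted p = 0.0444), from 6.68 to 8.10 in control and from 6.81 to 8.03 with the combination. DDIAS, a DNA-damage-induced apoptosis suppressor, differed by 1.025 (SE 0.144, adjusted p = 0.0488).

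Of 26 DNA replication genes tested, 25 were higher in experiment 2 and GINS3 was the member called. The list's median was 0.409, and 19 members were higher in all 4 pairs. By treatment the median was 0.30 in control, 0.38 with LY2784544, 0.23 with GRN163L and 0.67 with the combination. CDC6, which loads the helicase onto origins, came next without being called, at 8.66 and 9.63 in control, 8.73 and 9.32 with GRN163L, 8.91 and 9.47 with LY2784544, and 8.15 and 9.11 with the combination (0.77, SE 0.115, adjusted p = 0.0519). GINS4 (0.7225, adjusted p = 0.0782) and GINS1 (0.62, adjusted p = 0.0782), partners of GINS3 in the same complex, followed.

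Genes that make ribosomes were also higher on average. Of 24 ribosome biogenesis genes, 23 were higher in experiment 2 and 15 were higher in all 4 pairs, with a median of 0.216 and none called; the closest were NIP7 (0.695, SE 0.111, adjusted p = 0.0597) and UTP20 (0.705, SE 0.131, adjusted p = 0.0753). PNO1, which matures the small ribosomal subunit and was outside that list, was called at 0.7575 (SE 0.0964, adjusted p = 0.0444), while its second, dim probe set differed by 0.105. The 37 ribosomal protein genes differed the other way and by little: 32 were lower, the median was -0.077 and none was called. Of 18 cholesterol synthesis genes, 17 were higher, with a median of 0.275 and none called; INSIG1, a sterol sensor, was closest (0.62, SE 0.15, adjusted p = 0.102). The GRN163L pair went the other way, with 12 of the 18 lower in experiment 2 and a median of -0.15.

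The remaining genes called higher have other roles. RNU5D-1, a U5 spliceosomal RNA of a repeated family whose copies may share signal, differed by 1.323, with 3 of its 4 arrays of experiment 1 below the filter level, PIGW, an enzyme of GPI anchor synthesis, by 1.13, and DLEU2, the long noncoding host of a miRNA cluster, by 0.955. TEX15 differed by 0.82, STAP1, an adaptor protein of B cell signalling, by 0.75, TRMT10C, a subunit of mitochondrial RNase P, by 0.71, AEN, a p53-induced exonuclease, by 0.6825, SNORD96A, a box C/D small nucleolar RNA, by 0.675, and SLC25A13, a mitochondrial aspartate-glutamate carrier, by 0.6525. Their adjusted p-values were 0.0444 or 0.0488. SLC25A13 had the narrowest spread over pairs (SD 0.0574, n = 4 pairs).

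The 8 genes called lower held fewer familiar groups. The largest difference was that of MROH6 (7.45 and 6.71 in control, 7.59 and 6.80 with GRN163L, 7.78 and 6.49 with LY2784544, 8.05 and 6.91 with the combination; -0.99, SE 0.123, adjusted p = 0.0444), whose other probe set differed by -0.6225. MIR223, the gene of a miRNA made in myeloid cells, followed. Its probe set was at 9.55 and 9.07 in control, 9.79 and 8.81 with GRN163L, 9.72 and 8.65 with LY2784544, and 10.10 and 8.79 with the combination. All 4 arrays of experiment 2 lay below those of experiment 1, and control differed least (mean -0.96, SE 0.141, adjusted p = 0.0488). MIR223 was the last gene called, and ABCA7, the first not called, had an adjusted p of 0.0519.

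The array reads RNA of the MIR223 locus and cannot assign signal to an arm of the hairpin. The 2 mature forms are shown because MIR223 was the only miRNA gene called, with the seed, bases 2 to 8, in capitals; they lie at chrX:66018895-66018916 and chrX:66018937-66018958 on the plus strand of GRCh38.p14.
hsa-miR-223-5p: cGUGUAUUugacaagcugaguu
hsa-miR-223-3p: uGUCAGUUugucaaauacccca

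The other genes called lower were ZSWIM3 (-0.855), HOXB3, a homeobox factor of blood progenitors (-0.8275), PTGIR, the prostacyclin receptor (-0.795), ICAM5, an adhesion molecule (-0.75), KCTD7 (-0.725) and ANKZF1, a factor of ribosome quality control (-0.6975), with adjusted p-values of 0.0444 or 0.0488. HOXB3 lay between 7.56 and 7.85 on the arrays of experiment 1 and between 6.77 and 7.0 on those of experiment 2. None of the 8 reached a 2-fold difference, which 11 of the 23 genes called higher did.

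**Figure D2:**
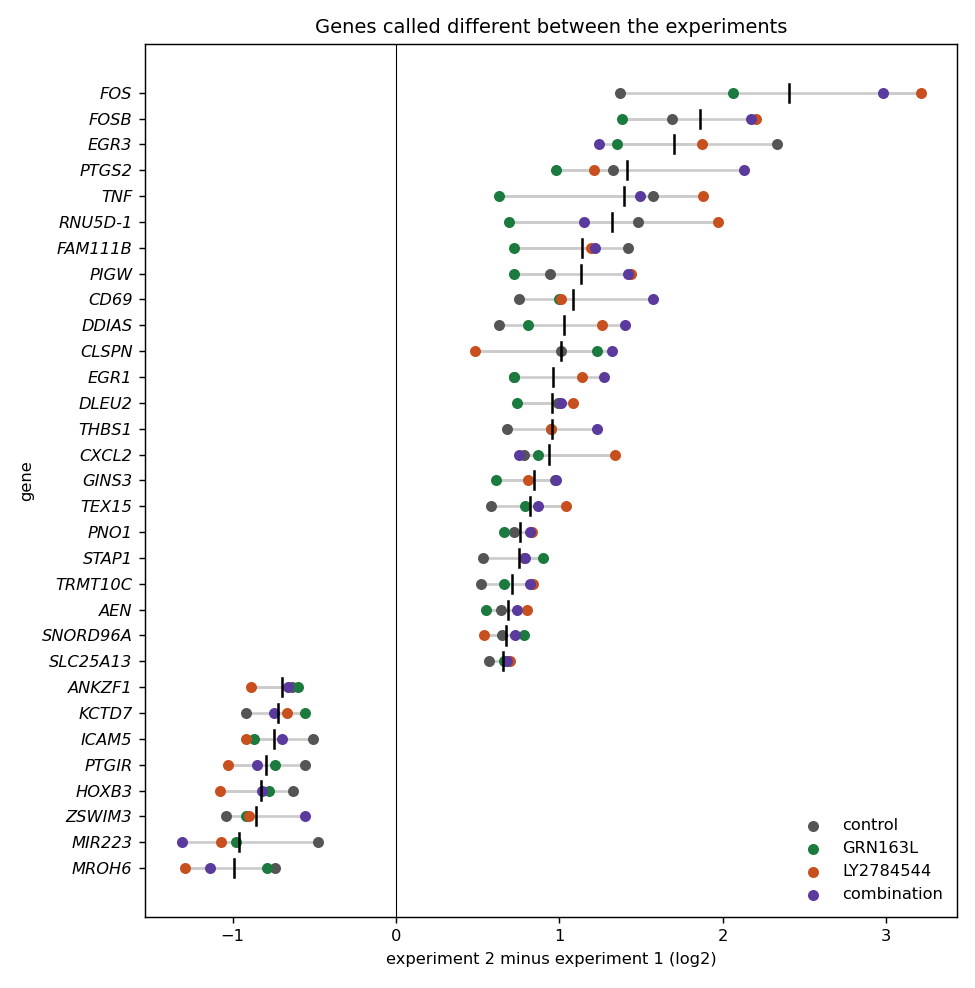
Difference between the experiments (log2, experiment 2 minus 1) of the 31 called genes, with 1 coloured point per treatment pair and a black bar at the mean of the 4 pairs. No point crosses 0, and the pairs of FOS spread from 1.37 to 3.21 while those of SLC25A13 nearly coincide.

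The size of the difference was not the same in all treatments. A difference of 1 or more was found for 139 genes in the control pair (1.11%; 41 higher and 98 lower in experiment 2), 256 genes in the LY2784544 pair (2.04%; 140 higher and 116 lower), 60 genes in the GRN163L pair (0.477%; 32 higher and 28 lower) and 254 genes in the combination pair (2.02%; 190 higher and 64 lower). The SD of the differences over genes was 0.332, 0.378, 0.299 and 0.377 in the same order. The GRN163L cultures of the 2 experiments were the most alike by both measures. Each of these counts rests on 1 pair of arrays. Of the 31 called genes, 25 had their largest absolute difference in the LY2784544 or the combination pair, as had 6640 of all 12570 genes tested.

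Across the 12570 genes, which are not independent replicates, the differences of the LY2784544 and the combination pair correlated at r = 0.67, those of GRN163L and the combination at 0.39, and those of LY2784544 and GRN163L at 0.26. The control pair correlated less with the others (0.19 with LY2784544, 0.12 with the combination and 0.10 with GRN163L). These pairs share no array, but all arrays of an experiment may share its handling.

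The next comparison asked whether the experiments differed otherwise where LY2784544 was present, on its own and in the combination, than in control and GRN163L. No gene was called in either direction (0%), the smallest adjusted p being 0.0622, and 1411 genes had an unadjusted p below 0.05 (11.2%; 957 higher and 454 lower). The fit leaves 2 residual degrees of freedom. With a mean-variance trend in the moderation, 108 genes were called, 88 of them higher, and without the LY2784544 pair 3 were. COX7B, a small subunit of cytochrome c oxidase, was closest to a call with LINC01366 and SNORD14E. COX7B was at 6.93 and 6.85 in control and at 6.74 and 6.57 with GRN163L, but at 4.86 and 7.16 with LY2784544 and at 4.83 and 6.63 with the combination. Only the 2 LY2784544-containing arrays of experiment 1 were low (difference 2.175, SE 0.226, adjusted p = 0.0622). LINC01366, a long noncoding RNA, showed the same arrangement, at 5.81 and 5.82 on those 2 arrays and between 7.26 and 8.10 on the other 6 (1.995, SE 0.199, adjusted p = 0.0622). SNORD14E, a small nucleolar RNA with close relatives, was arranged otherwise: it was lower in experiment 2 in control (9.65 and 7.90) and with GRN163L (10.61 and 8.54), and near level with LY2784544 (6.85 and 6.89) and the combination (6.26 and 6.54).

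The most uniform list in this comparison was that of G2 and mitosis. Its median signal was 9.62 and 9.44 in control and 9.08 and 9.13 with GRN163L, against 8.35 and 9.35 with LY2784544 and 8.18 and 9.26 with the combination. The list was therefore low on the 2 LY2784544-containing arrays of experiment 1 and near the control level on those of experiment 2. All 23 members tested were higher in experiment 2 in both LY2784544-containing pairs, by a median of 0.96 with LY2784544 and 0.93 with the combination. In control the median was -0.18, with 20 members lower, and with GRN163L it was 0.02. Both LY2784544-containing pairs lay above both other pairs for 23 of 23 members, as for 25.1% of all genes. The median of the difference with minus without LY2784544 was 0.985, against 0.05 over all genes, of which 57.1% were above 0. No member was called. With the mean-variance trend 15 of the 23 were, with a filter at the 50th percentile 1 was, and with array weights 0 were.

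DLGAP5, a protein of the mitotic spindle, was at 9.62 and 9.44 in control, 9.08 and 9.05 with GRN163L, 7.70 and 9.35 with LY2784544, and 7.61 and 9.10 with the combination (1.675, SE 0.194, adjusted p = 0.0824). HMMR, which organises spindle microtubules, was at 9.10 and 8.66 in control, 8.70 and 8.62 with GRN163L, 8.10 and 9.28 with LY2784544, and 7.62 and 8.68 with the combination (1.38, SE 0.209, adjusted p = 0.117). CENPE, a kinetochore motor, gave 1.335 (SE 0.211, adjusted p = 0.122), and KIF11, the motor that separates the spindle poles, gave 1.225 (SE 0.225, adjusted p = 0.131). Against the control of its own experiment, the list had a median of -0.99 with LY2784544 in experiment 1 and of 0.05 in experiment 2, and of -1.19 and -0.01 with the combination. All 23 members were lower than control with LY2784544 in experiment 1, and 9 were in experiment 2.

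Red cell genes and hypoxia genes were arranged in another way, with opposite signs in the pairs with and without LY2784544. Of 23 globin, heme and red cell genes, 21 had a larger difference with LY2784544 than without, with a median of 0.505 and none called. The median was -0.33 in control and -0.35 with GRN163L, and 0.28 with LY2784544 and 0.33 with the combination. HBB, the adult beta globin, was at 6.92 and 5.96 in control and 6.80 and 5.99 with GRN163L, and at 5.26 and 6.58 with LY2784544 and 5.36 and 6.17 with the combination (1.95, SE 0.23, adjusted p = 0.0824). ALAS2, the first enzyme of heme synthesis in red cells, was at 11.09 and 10.22 in control, 10.79 and 10.02 with GRN163L, 10.50 and 11.09 with LY2784544, and 10.22 and 10.82 with the combination (1.415, SE 0.187, adjusted p = 0.0845). HBD, whose sequence is close to that of HBB, gave 1.23 (adjusted p = 0.117), and CPOX, a later heme enzyme, gave 1.12 (adjusted p = 0.143). HBZ, an embryonic globin named after its values were seen, did not follow them: it was at 8.42 and 9.54 in control, 7.86 and 6.57 with GRN163L, 5.69 and 8.93 with LY2784544, and 5.20 and 6.25 with the combination (2.23, SE 0.851, adjusted p = 0.389). Against the control of its own experiment, the list's median with LY2784544 was -0.27 in experiment 1, with 18 members lower, and 0.29 in experiment 2, with 21 higher.

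Of 29 hypoxia and glycolysis genes, 26 had a larger difference with LY2784544 than without, by a median of 0.505, with none called. The median was -0.18 in control, 0.29 with LY2784544, -0.26 with GRN163L and 0.32 with the combination. PFKFB4, a regulator of glycolysis, was at 9.26 and 7.92 in control, 8.68 and 7.88 with GRN163L, 6.21 and 6.75 with LY2784544, and 5.94 and 6.6 with the combination (1.67, SE 0.233, adjusted p = 0.0971). BNIP3, a mitophagy receptor induced by low oxygen, was at 11.55 and 10.84 in control, 11.38 and 11.01 with GRN163L, 7.77 and 8.64 with LY2784544, and 8.58 and 9.49 with the combination (1.43, SE 0.205, adjusted p = 0.0971). Unlike the mitotic genes, both stayed below control with LY2784544 in each experiment. The list's median against control was -0.88 in experiment 1 and -0.38 in experiment 2 with LY2784544, and 27 and 26 of its members were lower. PDK1, which limits entry of pyruvate into mitochondria (1.165, adjusted p = 0.122), and ALDOC, a glycolytic aldolase (1.29, adjusted p = 0.131), were the next members.

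Replication-dependent histone genes, whose copies are alike in sequence, gave a median of 0.485 for the difference with minus without LY2784544, with 38 of 40 higher (57.1% of all genes) and none called. H1-2, a linker histone, was closest (1.245, SE 0.203, adjusted p = 0.123). DNA replication genes gave 0.265, with 23 of 26 higher. Of 142 small nucleolar and Cajal body RNAs, 107 had the opposite sign, with a median of -0.192 and none called. The genes with the smallest p among negative differences were ITGA9, an integrin alpha chain (8.49 and 8.70 in control, 8.82 and 8.94 with GRN163L, 8.90 and 7.59 with LY2784544, 9.97 and 8.59 with the combination; -1.51, SE 0.188, adjusted p = 0.0824), OR2AK2, an olfactory receptor (-1.465, adjusted p = 0.0827), and TAS2R4, a bitter taste receptor (-1.445, adjusted p = 0.0971). OR2AK2 and TAS2R4 were dim, and over 356 olfactory receptor genes, most of them unused in blood cells, the median of an array was 3.25 and 3.28 in control, 3.32 and 3.3 with GRN163L, 3.50 and 3.41 with LY2784544, and 3.53 and 3.37 with the combination. The part of this shift in the dim genes' differences was not tested.

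**Figure D3:**
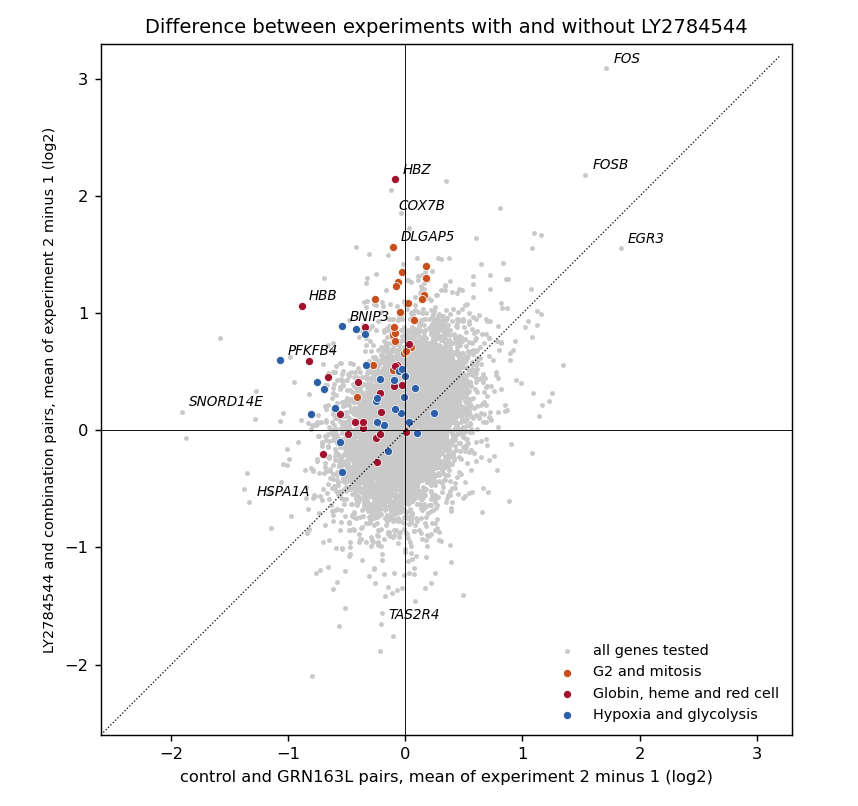
Each point is 1 of the 12570 genes tested, at its mean difference between experiments (log2, experiment 2 minus 1) in the control and GRN163L pairs (horizontal) and in the LY2784544 and combination pairs (vertical); the dotted line marks equal differences and 3 gene lists are coloured. FOS, FOSB and EGR3 are high on both axes, the G2 and mitosis genes lie above 0 on the vertical axis and around 0 on the horizontal one, and most red cell and hypoxia genes lie above the dotted line.

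Genes were then sorted by which pairs differed by 1 or more in one direction while every other pair differed by less than 0.5, with no test. No gene showed this in the 3 treated pairs and not in control (0%). A looser rule, chosen after seeing the data, asked for at least 1.5-fold in the named pairs and less than 1.5-fold in the others. By this rule 51 genes (0.406%) differed in the treated pairs only, 36 higher and 15 lower. Control alone held 4.77% of the genes by the same rule, and LY2784544 with the combination 3.6%. The 10 with the largest mean absolute difference in the treated pairs were CRISP3, RNU4-2, ADCY10P1, PBK, MIR223, DSCR8, GABRQ, DNA2, CD96 and MTFR2. CRISP3, a secreted protein of neutrophil granules, was at 7.87 and 7.82 in control, 6.69 and 8.36 with GRN163L, 4.92 and 5.85 with LY2784544, and 5.12 and 7.99 with the combination. PBK, a mitotic kinase, was at 7.49 and 7.62 in control, 6.85 and 7.46 with GRN163L, 5.92 and 7.40 with LY2784544, and 5.89 and 7.36 with the combination. DNA2, a nuclease-helicase of replication, was level in control (7.59 and 7.61) and lower in experiment 1 than in experiment 2 in each treated pair, and CD96, a lymphocyte receptor, differed by 1.20, 1.07 and 0.82 in the treated pairs and by -0.17 in control. RNU4-2, a U4 spliceosomal RNA whose near copy RNU4-1 may share signal, differed by -2.45 with LY2784544, -0.62 with GRN163L and -1.32 with the combination, and by 0.19 in control.

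For 24 of these 51 genes the control pair itself differed by 0.25 or more, as for MIR223 (-0.48) and GABRQ (0.50), which lie near the edge of the rule. Of the 51, 7 were also among the 31 genes called over all 4 treatments: MIR223, TEX15, PTGIR, ICAM5, STAP1, TRMT10C and SLC25A13. Their control pairs differed in the same direction as the treated pairs, only less. SLC25A13 differed by 0.57 in control, 0.70 with LY2784544, 0.66 with GRN163L and 0.68 with the combination. None of the 51 was called in the comparison of the experiment difference on treated with that on control arrays. Their adjusted p-values there ran from 0.327 to 0.828, and 34 had an unadjusted p below 0.05. The rule had chosen these genes by the same differences, so the count of 34 was favoured in advance and is no support for the pattern. In that comparison no gene of the 12570 was called (0%), with 1574 (12.5%; 1036 higher and 538 lower) at an unadjusted p below 0.05. Its control side is 1 pair of arrays. Setting the arrays to one median shifts it by 0.105, and it gave no call there either.

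Several of the genes closest to a call there differed in the control pair and little in the others. DNAJB4, a heat shock cochaperone, was at 8.15 and 6.2 in control, 7.93 and 7.86 with GRN163L, 6.91 and 6.69 with LY2784544, and 6.93 and 6.84 with the combination (1.823, SE 0.203, adjusted p = 0.327). HSPA1A, the inducible HSP70, whose copy HSPA1B is nearly identical, was at 10.72 and 8.28 in control, 11.04 and 10.81 with GRN163L, 9.06 and 8.59 with LY2784544, and 8.74 and 7.99 with the combination (1.957, SE 0.256, adjusted p = 0.327). The control of experiment 2 thus lay beside the LY2784544-containing arrays, and that of experiment 1 beside the GRN163L arrays. DNAJB1, the main HSP40 partner of HSP70, was arranged alike, at 10.78 and 9.32 in control and 10.98 and 11.09 with GRN163L. HSPA6, a strictly inducible HSP70, was lower in experiment 2 in control (7.54 and 5.32) and with GRN163L (8.53 and 7.0), and near 5.2 on the other arrays in both experiments (5.16 and 5.18 with LY2784544, 5.31 and 5.16 with the combination). Over the 18 heat shock genes, 12 had a positive difference in this comparison, as had 52.9% of all genes, with a median of 0.133 against 0.027 over all genes.

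HGF, a growth factor, was at 6.45 and 5.33 in control and higher in experiment 2 in the other pairs (4.65 and 5.60, 5.06 and 5.83, 3.93 and 4.42 with LY2784544, GRN163L and the combination; 1.857, SE 0.245, adjusted p = 0.327). In the opposite direction, WNT11, a secreted Wnt ligand, was at 7.85 and 9.75 in control, 7.35 and 7.78 with GRN163L, 8.12 and 8.34 with LY2784544, and 6.11 and 6.32 with the combination (-1.613, SE 0.211, adjusted p = 0.327). DUSP5, a phosphatase induced by and acting on ERK, was at 8.12 and 9.82 in control and between 7.37 and 7.78 on the other 6 arrays (-1.553, SE 0.214, adjusted p = 0.327). RNU4-1, the copy of the U4 RNA named above, gave -1.67 (SE 0.211, adjusted p = 0.327).

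By the sorting rule, 52 genes (0.414%) differed in the control pair alone, 9 higher in experiment 2 and 43 lower. The 9 were DUSP5, WNT11, IER3, FASN, NFKBID, HIVEP3, OTULINL, PPP1R16B and SNORA74A. IER3, an early response gene, was higher by 1.32 in control, NFKBID, an inhibitor-like partner of NF-kB, by 1.15, and FASN, the fatty acid synthase, by 1.19. Among the 43 lower genes, named after their values were seen, were CDKN1B, the inhibitor p27 of cyclin-dependent kinases (-1.18), CCNG2, an atypical cyclin of resting cells (-1.28), BTG1, an antiproliferative factor (-1.01), HBP1, a repressor of cell cycle genes (-1.62), DEPTOR, an inhibitor of mTOR (-1.08), CLK1 and CLK4, kinases of splicing factors (-1.09 and -1.11), and KDM3A and EGLN3, oxygen-sensing dioxygenases (-1.21 and -1.15). With 1 culture behind each value, these differences have no replicate.

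The pattern of LY2784544 and the combination alone held 48 genes (0.382%), 31 higher and 17 lower in experiment 2. Of the 31, 9 were in the G2 and mitosis list, which had no member in any other pattern. The 31 also held ANLN, KIF14, SKA1, SPC25 and MAD2L1, mitotic genes outside the list that were named after their values were seen. Mitotic genes outside the list that did not show the pattern were not counted. S100A10, a calcium-binding protein, differed by 1.43 with LY2784544 and 1.14 with the combination, and by 0.07 and -0.04 in control and with GRN163L. SHMT1 and SLC25A1, a serine hydroxymethyltransferase and the mitochondrial citrate carrier, were also in this pattern. The 17 lower genes included ITGA9, OR2AK2, TAS2R4, TAS2R10, AIM2, a sensor of cytosolic DNA (-1.08 and -1.39), and GLP1R (-1.65 and -1.27).

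LY2784544 alone differed for 37 genes (0.294%; 11 higher and 26 lower), the combination alone for 29 (0.231%; 22 higher and 7 lower) and GRN163L alone for 14 (0.111%; 3 higher and 11 lower). GSTP1, a glutathione transferase, differed by 1.44 in the combination pair and by at most 0.21 in size in the others. The mixed patterns were nearly empty. ANXA1 and HPGDS were higher with GRN163L and the combination (0.0159%), ID3 and PADI4 differed in control and LY2784544 (0.0159%), 4 genes differed in control and GRN163L (0.0318%; NLRP3 higher, and HSPA6, YPEL2 and SNORD14E lower), CLSPN and CCDC30 each stood alone in a pattern of 3 pairs (0.00796% each), and no gene differed in control with the combination alone, LY2784544 with GRN163L alone, or control with LY2784544 and GRN163L. FOS, FOSB and EGR3 were the 3 genes (0.0239%) past a difference of 1 in all 4 pairs.

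**Figure D4:**
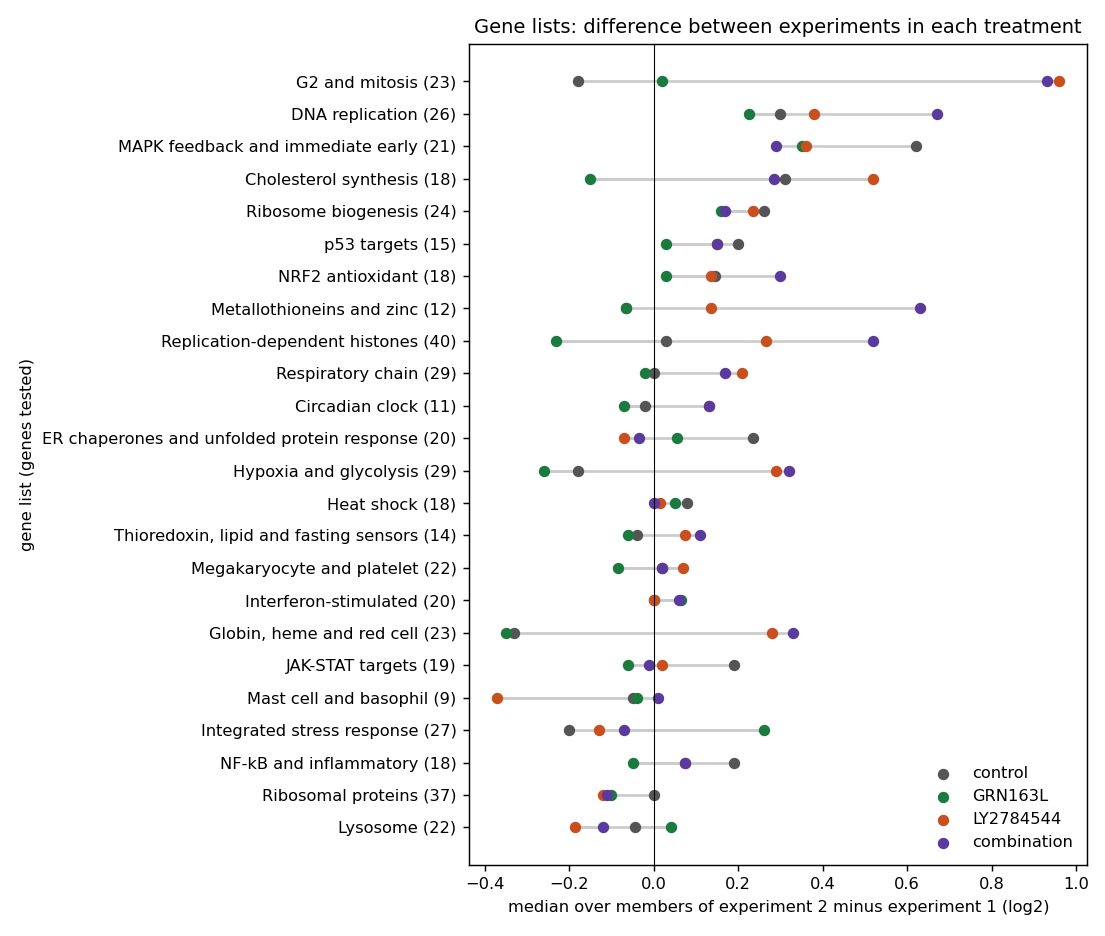
Median over the tested members of each gene list (number in brackets) of the difference between experiments (log2, experiment 2 minus 1), with 1 point per treatment pair; lists are ordered by the median of the members' mean differences. G2 and mitosis genes spread from -0.18 in control to 0.96 with LY2784544, while the ribosome biogenesis medians of the 4 pairs lie close together above 0.

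For GRN163L, present or absent, no gene was called (0%; smallest adjusted p 0.976), and 517 genes (4.11%; 306 higher and 211 lower) had an unadjusted p below 0.05, fewer than 5% of those tested. HPGDS, CPA3 and SGCZ had the smallest p-values among positive differences. HPGDS, the prostaglandin D synthase of mast cells, was at 9.21 and 8.90 in control and 8.68 and 8.37 with LY2784544, but at 6.19 and 7.55 with the combination and 8.09 and 9.28 with GRN163L (1.585, SE 0.201, adjusted p = 0.976). CPA3, a mast cell protease, was at 10.25 and 9.89 in control, 9.35 and 10.25 with GRN163L, 9.87 and 9.19 with LY2784544, and 7.08 and 7.88 with the combination (1.37, SE 0.216, adjusted p = 0.976). KIT, the stem cell factor receptor, was at 7.42 and 8.69 with the combination and 9.88 and 10.47 with GRN163L, against 10.29 and 10.28 in control. Of the 9 genes of the mast cell and basophil list, which holds HPGDS, CPA3 and KIT, 6 had a positive difference and 3 a negative one, with a median of 0.185 against 0.015 over all genes; these 3 named members had an unadjusted p below 0.05.

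SGCZ (1.705), UNC5B, a netrin receptor (-1.32), ID3, an inhibitor of differentiation factors (-1.07), and LMO7DN (-0.925) had the other smallest p-values, all at an adjusted p of 0.976. UNC5B was higher in experiment 2 in control (7.91 and 8.80) and with LY2784544 (7.64 and 8.40), and lower with GRN163L (6.85 and 6.59) and the combination (6.31 and 5.58). All 18 cholesterol synthesis genes had a smaller difference with GRN163L than without, with a median of -0.267 and none called. Of all genes tested, 52.7% had a larger one. HMGCS1, the synthase at the start of the pathway, was at 9.08 and 10.14 in control and 8.59 and 9.62 with LY2784544, and at 8.90 and 9.64 with the combination and 9.99 and 9.93 with GRN163L (-0.705, SE 0.292, adjusted p = 0.976).

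**Figure D5:**
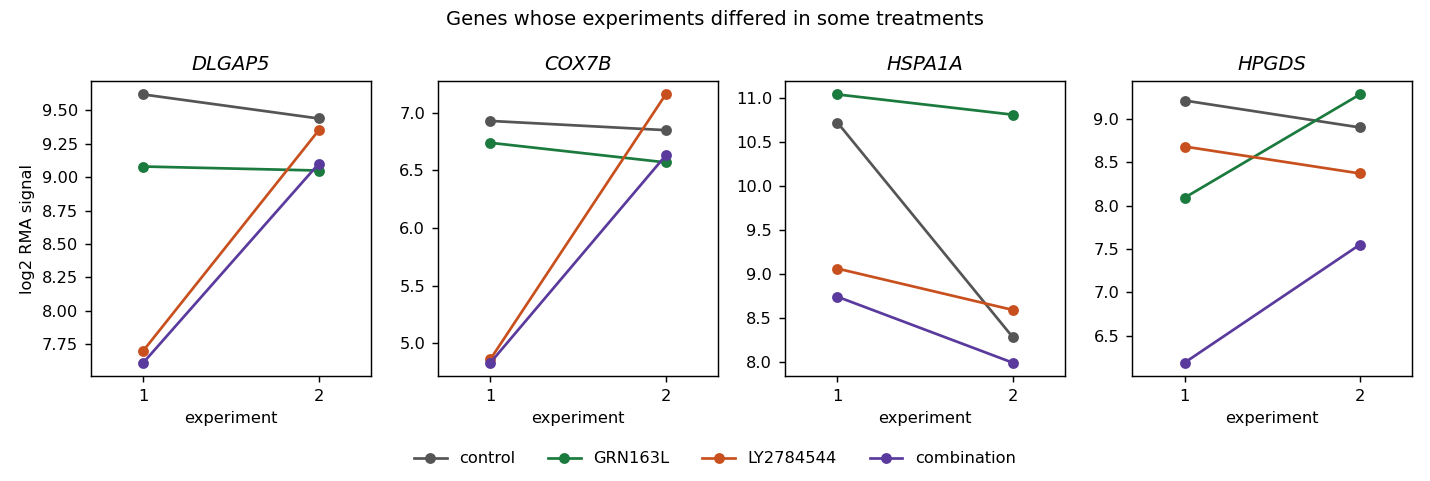
Log2 RMA signal by array, joined within treatment, of 4 genes whose difference between experiments was larger in some treatments than in others. None of the 4 was called, and each panel has its own vertical scale. DLGAP5 and COX7B are low on the LY2784544 and combination arrays of experiment 1, HSPA1A drops most in control, and HPGDS goes up with GRN163L and the combination.

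The change of a treatment against the control of its own experiment had a different size in each experiment. With LY2784544, 675 genes differed from control by 1 or more in experiment 1 and 321 in experiment 2, of which 162 were shared in the same direction (24.0% and 50.5% of each list). With the combination the numbers were 951 and 511, with 248 shared (26.1% and 48.5%). With GRN163L the order was turned: 51 genes in experiment 1 and 217 in experiment 2, with 21 shared (41.2% and 9.68%) and 1 in opposite directions. The changes in experiment 1 and 2 correlated across genes at r = 0.48 for LY2784544, 0.58 for the combination and 0.17 for GRN163L; within an experiment the 3 changes share 1 control array.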

How the data were processed

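Total RNA (150 ng per array) was measured on 8 arrays. The deposited log2 signals were made by the authors with RMA in Affymetrix Expression Console, per the submitters' processing notes; the sources used here give no version, genome build or number of RMA runs. RMA brings arrays to nearly one distribution, which reduces shifts of most genes. The array medians over 33297 probe sets were 5.07 to 5.25, and their number limits precision. Probe sets with exactly 1 annotated gene (19181) were kept and the brightest stood for its gene; genes under the 30th percentile of the mean (4.37) were left out. The log base was taken from the values' range.

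Models were fitted with limma 3.58.1 in R 4.3.3 to all arrays, two-sided, with Benjamini-Hochberg adjustment over 12570 genes. The experiment difference had treatment as covariate, and 3 further models added its interaction with LY2784544, with any treatment or with GRN163L. Only the models of the experiment difference and of the LY2784544 interaction were tried on simulated data. The labels name each array's experiment, so the number pairs arrays. An F-test between treatments called 279 genes without and 848 with the experiment as replicate block. Each treatment has 1 culture per experiment, and each experiment was made 1 time. The p-values of the experiment difference therefore reflect how unevenly it ran over the 4 treatments, with the spread between cultures and arrays. They do not measure the spread between repeated experiments. An exact test of 4 pairs cannot go below 0.125.

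The genes and gene lists were chosen with earlier results of these data known. Named by rule were the 10 largest called differences per direction, or the 3 smallest p-values where none was called. Up to 10 genes of the treated-only pattern and up to 4 members with the smallest p per list were added. The other called genes complete the set of 31. Further genes, among them those picked from the other pair patterns, were named after their values were seen. Sequences and names come from RefSeq tables (GRCh38.p14).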

Additional observations from a re-analysis of the deposited data

How the results depend on the processing

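The 31 calls between experiments became 64 with a mean-variance trend and 1319 with array weights (910 higher, 409 lower; all 31 kept in both), 18 with robust moderation, 11 at 2-fold or more, 1 over every 1-gene probe set and 1 without pairing by treatment; leaving out pairs gave 0 to 2. The array weights were lowest for the control pair (0.483) and highest for the combination pair (1.65). For the LY2784544 interaction, 0 calls became 11 with a filter at the 50th percentile, 3 with quantile normalization, 25 over every 1-gene probe set and 108 with the trend. It stayed at 0 calls without a filter, with one median, robust moderation, the mean of all probe sets or array weights. With both agent interactions in one fit it was also 0, with a smallest adjusted p of 0.259 against 0.0622 in the main limma fit. Leaving out pairs gave 0 to 3 calls. The interactions with any treatment and with GRN163L gave 0 calls in all alternatives run. The F-test between treatments gave 279 genes, 848 with the replicate block and 46 to 310 when 1 array was left out. Among alternatives added after seeing the data, the treated-only pattern went from 0 to 1 gene with one median, 2 with quantile normalization and 51 at 1.5-fold, where LY2784544 with the combination went from 48 to 452, control from 52 to 599 and all 4 pairs from 3 to 22. Of 616 values of named genes under alternatives, 427 kept direction and call, or the lack of one, 176 lost the call, 13 gained one and 0 changed sign. Only the 31 genes called in the main fit could lose a call, since the other named genes were not called there. Of 248 list medians, 223 moved by less than their spread. The causes were not tested. Under another scaling, list medians changed sign for the mean of all pairs in hypoxia, ER chaperone, heat shock, interferon, thioredoxin, circadian, monocyte and fibroblast genes. For the LY2784544 interaction they did so in ribosome biogenesis, JAK-STAT, NF-kB and fibroblast genes. All these medians stayed between -0.094 and 0.1. RMA signals near 4.37 limit what dim genes can show.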
